A study of Mus musculus with 71 samples.

Results

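DNA replication is carried out by proteins that act in a fixed order. The members described here are the genes for these proteins that the series' tables name: the origin recognition complex and licensing factors, the MCM helicase and its activators, the DNA polymerases and primase, the sliding clamp with its loader, and the proteins that bind single strands, join Okazaki fragments and supply nucleotides. They were chosen by gene name from a list of 44. The tables hold 43 of them among 21527 genes, and the remaining one, Cdt1, was not analysed here.

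The cells were male mouse embryonic stem cells (mESC), kept as pluripotent cells in medium with the 2i inhibitors and LIF. RNA turnover was measured by SLAM-seq, in which 4-thiouridine (s4U) that cells build into new RNA is read out as T-to-C conversions in 3′-end sequencing. All labelled cells had received 100 µM s4U for 24 h, followed by a chase with an excess of uridine. Treatment with STM2457 at 20 µM, an inhibitor of the m6A methyltransferase Mettl3, or with DMSO, the solvent control, began 6 h ahead of the chase and lasted until harvest.

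Each treatment was sampled at 8 time points, T0 to T7, with 4 replicates each except STM2457 at T4, which had 3, and with 4 replicates that had received no s4U. Per the study's methods the time points were 0, 1, 1.5, 2.3, 3.5, 5.3, 8 and 12 h of chase, so that T0 lay at 6 h and T7 at 18 h of treatment. The labels do not give the hours of treatment of the unlabelled cells. The study's methods describe the replicates as biologically independent.

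Replication starts at origins, where the origin recognition complex and Cdc6 load a ring of MCM proteins that stays inactive until S phase. The kinase Cdc7 with its partner Dbf4 then helps to attach Cdc45 and the GINS complex, which turns the ring into the active helicase. With the help of the clamp, polymerases copy the unwound strands. Transcription of many of these genes is driven by E2F factors as cells enter S phase.

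The 71 libraries held between 4539726 and 7368244 counted reads (medians 5465434.5 for DMSO and 5765090 for STM2457). Members had a median of 94 (the least) to 3518 reads (the most) per library, and all 43 passed the filter on low counts, together with 12659 genes in all. Levels are given as CPM, the reads of a gene scaled to a fixed library size after TMM normalization, and a fold change is the fitted log2 difference with its standard error (SE). The CPM values of marker genes are an exception, as they were scaled to library totals only. The summed level of 7 mESC markers (Sox2 was not analysed here) was 3291 to 4696 CPM in DMSO and 3597 to 4525 CPM in STM2457, against at most 24.1 CPM for 6 fibroblast markers, of which Col1a1, Col1a2, Col3a1, Dcn and Lum averaged under 1 CPM. The summed level of 4 primed epiblast markers was 195 to 365 CPM in DMSO (median 249) and 124 to 299 CPM in STM2457 (median 188). Among these only Dnmt3b was called in the mean of T0 to T7 (log2 -0.51 ± 0.04, edgeR adjusted p = 1.5e-17). Pou3f1 went the other way without a call (0.54 ± 0.18, edgeR adjusted p = 0.013). Otx2 stood at -0.01 ± 0.16 and Fgf5, which averaged under 1 CPM, at 0.01 ± 1.49. The part of these differences in the results of the members was not tested. On the main axis of variation within groups, which held 35.4% of that variance, 12 libraries stood apart (DMSO unlabelled replicate 4, T0 replicate 1, T1 replicates 2, 3 and 4, T2 replicates 2 and 4 and T5 replicates 3 and 4, and STM2457 T1 replicates 1, 2 and 4). In these 12 libraries 75 ribosomal protein genes took 16.5 to 19.1% of the counted reads, against 12.5 to 16.7% in the others. Of the 12, 9 were DMSO libraries, and members whose call in the mean of T0 to T7 changed with them are named below.

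Over the chase as a whole, many replication transcripts were lower in STM2457 than in DMSO, and 2 were higher. In the mean of T0 to T7, 23 of 43 members were lower, 2 were higher and 18 were not called (edgeR's quasi-likelihood test, Benjamini-Hochberg adjusted p under 0.01). The same comparison called 12.6% of all genes lower and 13.9% higher. The median log2 difference was -0.16 over the members and -0.01 over all genes tested, and 34 of 43 members were below 0. In means per time point, 16 members were lower in STM2457 at all 8 time points, as were 7.31% of all genes. In bulk RNA, fewer cells in S phase and less RNA per cell cannot be told apart.

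**Figure D1:**
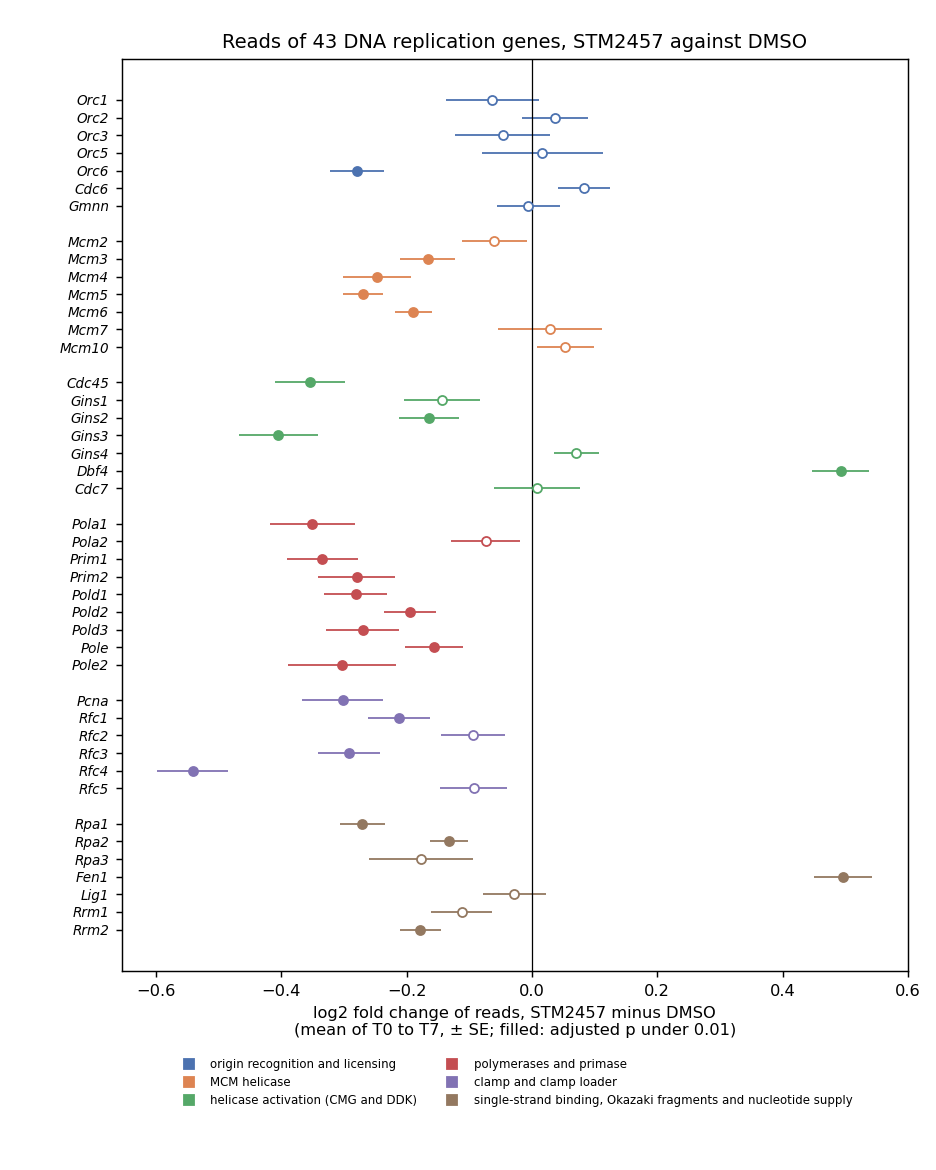
Log2 difference in level, STM2457 minus DMSO, averaged over T0 to T7, for the 43 members ordered by role, with the SE of the fit as bars; filled points passed an adjusted p under 0.01. Most points sit left of 0, with Rfc4 at -0.54 as the lowest, and Fen1 at 0.50 and Dbf4 at 0.49 are the filled points on the right.

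The 4 unlabelled libraries per treatment, which entered none of these means, gave the same directions. All 23 members that were lower over the chase had a negative difference there (median log2 -0.28, range -0.61 to -0.05), and both members that were higher had a positive one. Of all genes called lower over the chase, 88.9% were negative in the unlabelled libraries. The difference was thus present in libraries without s4U. In those alone, Dbf4 was called higher (log2 0.67 ± 0.13, edgeR adjusted p = 0.00023) and Orc6 lower (-0.61 ± 0.12, edgeR adjusted p = 0.00044), where 1.73% of all genes were called higher and 0.845% lower.

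The calls of some members changed with the libraries that stood apart. With the score on that axis as a covariate, 2 members were higher and 27 lower (14.3% and 13.8% of all genes), and 23 of the 25 calls were kept. Mcm3 and Pole2 were no longer called, and Lig1, Mcm2, Mcm7, Orc5, Rfc2 and Rfc5 were called lower in addition. Without the 12 libraries 22 members were called, with Mcm3, Pold3, Pole, Pole2 and Prim2 lost and Mcm2 and Rfc5 gained. Of T1, the fit without these libraries kept only DMSO replicate 1 and STM2457 replicate 3, a single library per treatment, so that its mean is weak there. In the mean of T3, T4, T6 and T7 alone, which hold no library that stood apart, 2 members were higher and 12 lower (7.88% and 5.7% of all genes), and the median of the members was -0.16. The 11 members whose call was lost in that smaller mean, which also holds fewer libraries, were Gins2, Mcm3, Mcm4, Pcna, Pola1, Pold3, Pole2, Prim2, Rfc1, Rfc3 and Rrm2, all with the sign unchanged.

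Among the origin recognition and licensing genes 1 of 7 was called. Orc6, a subunit of the origin recognition complex, was lower (log2 -0.28 ± 0.043, edgeR adjusted p = 1.7e-07). The other subunits measured, Orc1, Orc2, Orc3 and Orc5, had differences between -0.06 and 0.04. Of these, Orc5 stood at -0.17 ± 0.042 and was called lower with the library axis as covariate, and at -0.26 ± 0.14 without a call in the mean of T3, T4, T6 and T7. Cdc6, which brings the MCM ring to the origin, stood at 0.08 ± 0.041, and Gmnn (geminin, the inhibitor of licensing) at -0.01 ± 0.051, neither of them called.

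Of the MCM genes, 4 of 7 were lower. They were Mcm5 (log2 -0.27 ± 0.032, edgeR adjusted p = 1.8e-10), Mcm4 (-0.25 ± 0.054), Mcm6 (-0.19 ± 0.03) and Mcm3 (-0.17 ± 0.044), all subunits of the helicase ring. Mcm2 and Mcm7, from the same ring, had differences of -0.06 ± 0.052 and 0.03 ± 0.083. With the library axis as covariate these became -0.16 ± 0.026 and -0.14 ± 0.032 and were called lower, while Mcm3 at -0.08 ± 0.03 was no longer called. In the mean of T3, T4, T6 and T7, Mcm4 and Mcm3 stood at -0.07 each and were not called (edgeR adjusted p = 0.61 and 0.49). Mcm10, which takes part in activating the helicase, stood at 0.05 ± 0.045.

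The activators of the helicase moved in opposite directions. Dbf4, the regulatory subunit of the Cdc7 kinase, was higher (log2 0.49 ± 0.045, edgeR adjusted p = 9.9e-15), whereas Cdc7 itself stood at 0.01 ± 0.068. At T0, Dbf4 had 112, 107, 123 and 106 CPM in the DMSO replicates and 142, 124, 140 and 167 CPM in STM2457. At T7 it had 72.7, 78.8, 102 and 90.02 CPM in DMSO and 132, 127, 140 and 127 CPM in STM2457. Every STM2457 library lay above every DMSO library of its time point at 7 of 8 time points. At single time points the same held for 3.39% (T1) to 11.5% (T2) of all genes.

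The GINS complex was not uniform either. Gins3 was lower (log2 -0.41 ± 0.063, edgeR adjusted p = 2.3e-07) and so was Gins2 (-0.16 ± 0.048), while Gins1 at -0.14 ± 0.06 and Gins4 at 0.07 ± 0.035 were not called. Gins3 had 25.1, 27.9, 40.3 and 32.6 CPM in DMSO and 32.9, 29.2, 28.4 and 23.5 CPM in STM2457 at T0, which overlap. At T7 the values were 37.7, 30.7, 35.4 and 35.4 CPM in DMSO against 26.7, 19.5, 25.5 and 17.3 CPM in STM2457, without overlap, as for 8.7% of all genes in that direction. The change of the difference from T0 to T7 was not called for Gins3 (log2 -0.50 ± 0.25, edgeR adjusted p = 0.35).

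Cdc45, the factor that joins GINS and MCM in the active helicase, was lower (log2 -0.35 ± 0.056, edgeR adjusted p = 3.5e-07). Its DMSO libraries had 53.9, 35.7, 33.5 and 30.7 CPM at T0 and 48.9, 39.3, 46.8 and 33 CPM at T7. The STM2457 libraries had 38.4, 31.7, 28.8 and 31.1 CPM at T0 and 34.3, 36.7, 37.0 and 34.02 CPM at T7. The groups overlapped at both times, and over all labelled libraries the levels ran from 26.99 through a median of 37.9 to 53.9 CPM in DMSO and from 16.8 through 30.7 to 46.2 CPM in STM2457.

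Polymerase and primase genes were the role with the most calls. Of 9 members 8 were lower, with a median log2 difference of -0.28 and all 9 below 0. The lowest were Pola1, the catalytic subunit of polymerase α (-0.35 ± 0.068, edgeR adjusted p = 2.2e-05), and Prim1, the catalytic subunit of primase (-0.33 ± 0.057). The polymerase δ subunits Pold1, Pold2 and Pold3 lay between -0.28 and -0.20, the polymerase ε subunits Pole and Pole2 at -0.16 and -0.30, and the large primase subunit Prim2 at -0.28. Pola2, the accessory subunit of polymerase α, stood at -0.07 ± 0.055 and was not called. With the axis as covariate 7 of 9 were lower, without Pole2, and in the mean of T3, T4, T6 and T7, where all 9 were again below 0, 4 of 9 were.

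Pola1 also shows how far a single library could reach. At T0 its DMSO libraries had 72.6, 37.9, 44.2 and 33.4 CPM and its STM2457 libraries 40.2, 44.2, 38.6 and 38.1 CPM. The DMSO value of 72.6 CPM belongs to a library that stood apart, and the other 3 overlap the STM2457 values. At T7 Pola1 had 45.1, 31.2, 35.9 and 37.1 CPM in DMSO and 17.1, 30.1, 23.7 and 32.7 CPM in STM2457. Without the time points that hold such libraries its difference was -0.27 and missed the threshold (edgeR adjusted p = 0.039).

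The clamp and clamp loader genes had 4 of 6 members lower. Rfc4, a small subunit of the clamp loader, was the member with the lowest value (log2 -0.54 ± 0.056, edgeR adjusted p = 1.1e-12). It had 70.7, 51.3, 61.2 and 53.1 CPM in DMSO and 43.5, 37.1, 42.7 and 34.7 CPM in STM2457 at T0, and 69.3, 55.3, 53.7 and 42.5 against 31.8, 36.8, 33.2 and 37.9 CPM at T7. The groups did not overlap at either time, and at 6 of 8 time points in all they did not. Of all genes, 1.84% (T1) to 11.1% (T2) were lower without overlap at single time points. Rfc1 (-0.21 ± 0.049) and Rfc3 (-0.29 ± 0.049), 2 more subunits of the loader, were also lower, while Rfc2 and Rfc5 stood at -0.09 each and were not called. With the axis as covariate these were -0.16 ± 0.043 and -0.20 ± 0.031, and all 6 genes of the role were lower, whereas in the mean of T3, T4, T6 and T7 only Rfc4 was.

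Pcna, the sliding clamp, was lower by this test (log2 -0.30 ± 0.064, edgeR adjusted p = 0.0001). Its level was 348 CPM in the median of the 12 libraries that stood apart and 167 CPM in the others, and its difference was -0.17 ± 0.039 with the axis as covariate and -0.10 without the time points holding such libraries, where it was not called (edgeR adjusted p = 0.52). The part of these libraries in the difference of Pcna was not tested. Of its reads, 48.5% mapped to more than 1 place, against 17.9% for Cdc6 and at most 3.61% for any other member, so that its count can be split with near-identical copies.

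Fen1, the nuclease that trims Okazaki fragments, was the other member that was higher (log2 0.50 ± 0.047, edgeR adjusted p = 2.9e-14), which is an increase of 41.1%. It had 133, 147, 111 and 139 CPM in DMSO and 197, 180, 168 and 155 CPM in STM2457 at T0. At T7 it had 115, 92.9, 111 and 89.3 CPM in DMSO and 157, 158, 163 and 157 CPM in STM2457. The groups did not overlap at these times, nor in the unlabelled libraries, which had 126, 115, 123 and 142 CPM in DMSO and 195, 159, 183 and 180 CPM in STM2457. Of all genes, 5.94% at T0, 9.21% at T7 and 6.15% without s4U were higher without overlap.

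Of the 7 genes for single-strand binding, Okazaki fragments and nucleotide supply, 3 were lower and Fen1 alone was higher. Rpa1 (log2 -0.27 ± 0.036, edgeR adjusted p = 4.1e-09) and Rpa2 (-0.13 ± 0.03), which coat unwound DNA, were lower, as was Rrm2, the small subunit of ribonucleotide reductase (-0.18 ± 0.032). The third RPA subunit, Rpa3, stood at -0.18 ± 0.083 and the large reductase subunit Rrm1 at -0.11 ± 0.048, and neither was called. Lig1, the ligase that seals Okazaki fragments, stood at -0.03 ± 0.051, and at -0.13 ± 0.029 with the axis as covariate, where it was called lower.

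**Figure D2:**
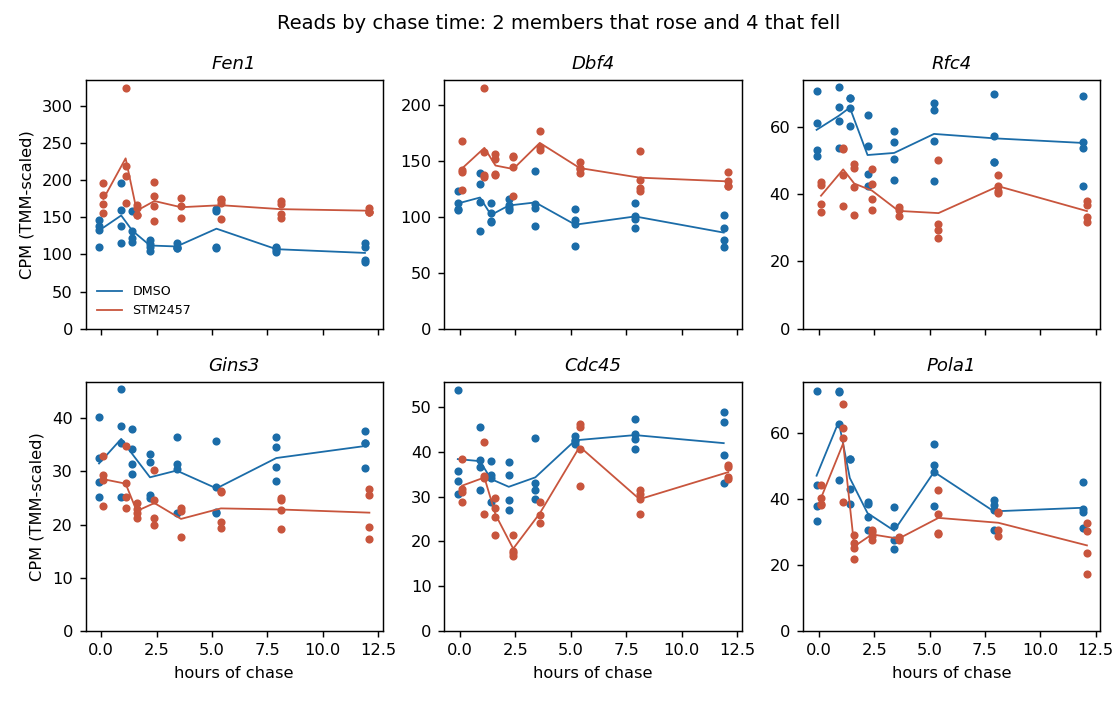
Level in CPM (y axis) against hours of chase (x axis) for Fen1, Dbf4, Rfc4, Gins3, Cdc45 and Pola1, with 1 point per labelled library and a line through the group means of DMSO and STM2457. For Fen1 and Dbf4 the STM2457 line runs above the DMSO line at all 8 times, and for the other 4 genes it runs below it at all 8.

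Single time points had less power than the mean. At T0, that is after 6 h of inhibitor, edgeR's quasi-likelihood test called 0 members at an adjusted p under 0.01, while 1.27% of all genes were called higher and 0.411% lower. At an unadjusted p under 0.05 there were 12 members, 2 higher and 10 lower, against 8.84% of all genes higher and 7.22% lower, and DESeq2 called 4 lower (0.571% of all genes). At T7 it called Fen1 (log2 0.64 ± 0.13) and Dbf4 (0.62 ± 0.13) higher and Rfc4 (-0.66 ± 0.16) and Gins3 (-0.64 ± 0.18) lower, where 3.85% of all genes were higher and 1.56% lower. These 4 calls have edgeR adjusted p-values of 0.00031, 0.00033, 0.0023 and 0.0093. The calls of Rfc4 and Gins3 at T7 did not survive every omission of a library: without DMSO T7 replicate 1 their adjusted p-values were 0.039 and 0.038.

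At T2, 12 members were lower and 1 higher, against 4.02% and 4.16% of all genes. The DMSO group of that time point holds 2 libraries that stood apart, and with the axis as covariate 1 member was lower and 2 were higher (1.22% and 1.82% of all genes). At T5, whose DMSO group also holds 2 such libraries, Dbf4 was higher and Rfc4, Prim1, Rpa1 and Rrm2 were lower, where 2.46% of all genes were higher and 1.98% lower. At T1, T4 and T6 the calls were Fen1 or Dbf4 alone (background 1.11%, 1.04% and 1.79% higher, and 0.419%, 0.253% and 0.553% lower), and at T3 they were Fen1 higher (1.26%) and Cdc45 lower at -0.81 ± 0.16 (0.348%). The change of the difference from T0 to T7 was called for 0 members by edgeR and by DESeq2, with 4 at an unadjusted p under 0.05 (14.2% of all genes), where edgeR called 0.916% of all genes in the positive and 0.19% in the negative direction.

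The summed level of the 43 members had a lower mean in STM2457 than in DMSO at each time. It was 6305 to 6386 CPM in DMSO and 5779 to 6065 CPM in STM2457 at T0, and 6112 to 6269 against 5644 to 5790 CPM at T7. In the unlabelled libraries it was 6542 to 7026 CPM in DMSO and 6132 to 6531 CPM in STM2457. The ranges of the treatments were apart at these times and met at T2, where DMSO began at 6001 CPM and STM2457 ended at 6040 CPM. Over the chase the DMSO means ran from 6021 CPM at T5 to 6445 CPM at T4. The direction over time depended on the scale, since the DMSO mean was 6346 CPM at T0 and 6172 CPM at T7 after TMM scaling, but 6259 and 6696 per fixed library total.

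Promoters of the members were read from RefSeq on GRCm38.p6 (250 bases before to 50 after each gene's start) because E2F factors act on many of these genes. The E2F element was searched as TTTNNCGC, where each N was C or G, on both strands, with overlapping matches counted separately. It was found in 14 of the 35 members that have a promoter in that table (40%), in 553 of 16767 genes of the files (3.3%) and in 744 of all 32851 promoters (2.26%). Windows of 4 members that were lower in STM2457 are shown with the element in capitals, each read on the strand of its gene, with 2 elements in the windows of Mcm5 (overlapping) and Rfc3: Gins3 at chr8:95633507-95633536 (+), Pola1 at chrX:93632275-93632304 (-), Mcm5 at chr8:75109345-75109374 (+) and Rfc3 at chr5:151651200-151651229 (-).
Gins3: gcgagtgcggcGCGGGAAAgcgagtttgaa
Pola1: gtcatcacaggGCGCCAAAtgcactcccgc
Mcm5: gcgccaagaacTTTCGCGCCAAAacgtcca
Rfc3: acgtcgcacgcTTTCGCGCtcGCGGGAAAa

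The element was no divide between the members that were lower and the rest. Of the 14 members with it, 9 were lower and 0 higher over the chase (median log2 -0.23), and of the 21 without it, 10 were lower and 2 higher (median -0.13). Neither Fen1 nor Dbf4 held the element in this window, and nor did Rfc4, Cdc45 and Pcna, all 3 of which were lower. A match is a sequence only, and binding was not measured.

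Since STM2457 blocks m6A, its common sequence context GGACN, with any base but G as N, was also counted in the transcripts, on the coding strand, in the GENCODE M21 annotation of GRCm38. In 3′ UTRs it was present in 30 of 43 members (69.8%) and in 79.5% of 12214 genes tested. The 3′ UTRs of the members were shorter, with a median of 463 bases against 924. Per 1000 bases the medians were close, at 2.60 against 2.58 in 3′ UTRs and 3.95 against 4.26 in coding sequence. Dbf4 held 0 in a 3′ UTR of 206 bases and 2 in its coding sequence, whereas Fen1 held 1 in a 3′ UTR of 804 bases and 4 in its coding sequence. Among the members that were lower, Rfc4 and Cdc45 held 0 in the 3′ UTR, Pola1 held 3 and Gins3 held 6. The first site after the stop codon is shown for Fen1 at chr19:10199693-10199717 (-), Gins3 at chr8:95643502-95643526 (+) and Pola1 at chrX:93305557-93305581 (-), with the context in capitals.
Fen1: tcaggttaatGGACActgtagtcat
Gins3: ttggtcttctGGACTgtagctacct
Pola1: tttcttttgaGGACTgcatactgtg

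Fen1 lies at chr19:10199132-10204169 on the minus strand and Dbf4 at chr5:8396973-8422716 on the minus strand of GRCm38. Among the members that were lower, Rfc4 lies at chr16:23113943-23127737 and Cdc45 at chr16:18780447-18811987, both on the minus strand. Gins3 lies at chr8:95633453-95645060 on the plus strand and Pola1 at chrX:93304767-93632155 on the minus strand. All are protein coding, and their reads were counted on the 3′ UTR.

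Over the 12 h of chase itself, some members changed in DMSO. From T0 to T7, 7 members fell and 2 rose, against 8.2% of all genes lower and 4.85% higher, and the median of the members was -0.09 against 0.04 over all genes. Rpa3 fell most (log2 -1.45 ± 0.24, edgeR adjusted p = 2.2e-06). It had 55.97, 30.95, 36.98 and 39 CPM at T0 and 18.3, 15.7, 12.99 and 12.5 CPM at T7, and the groups did not overlap. In STM2457 it went from 34.8, 39.9, 25.5 and 23.9 CPM to 10.4, 14.2, 15.4 and 13.4 CPM (-1.21 ± 0.24, edgeR adjusted p = 0.0002), so Rpa3 fell under both treatments.

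Pcna fell in DMSO by 0.97 on the log2 scale (± 0.18, edgeR adjusted p = 3.3e-05), from 365, 305, 193 and 205 CPM to 135, 141, 148 and 120 CPM. In STM2457 it went from 219, 216, 184 and 181 CPM to 161, 155, 136 and 124 CPM and was not called. The T0 value of 365 CPM is from a library that stood apart, and with the axis as covariate Pcna still fell (-0.61). Gins1 fell in DMSO from 45.1, 41.7, 39.6 and 46.7 CPM to 23.8, 26.6, 32.1 and 24.7 CPM (-0.69 ± 0.17, edgeR adjusted p = 0.0017). In STM2457, Gins1 had 41.5, 38.1, 34.9 and 41.7 CPM at T0 and 36.3, 44.98, 38.7 and 37.2 CPM at T7, with no call.

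Mcm4 fell in DMSO from 94.8, 76.8, 53.4 and 65.6 CPM to 46.5, 46.9, 51.6 and 40.95 CPM (-0.64 ± 0.15, edgeR adjusted p = 0.001). The others that fell were Mcm3 (-0.42), Rrm2 (-0.38) and Mcm5 (-0.33). These were genes of the helicase, the clamp, RPA and nucleotide supply, and no polymerase or origin gene was called with TMM scaling. The change of each of them was compared with that in STM2457, and the difference of the changes was called for 0 members (Gins1 0.70 ± 0.24, edgeR adjusted p = 0.11).

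The clamp loader subunits Rfc5 and Rfc2 rose in DMSO. Rfc5 went from 207, 243, 269 and 273 CPM to 329, 362, 356 and 399 CPM (log2 0.54 ± 0.15, edgeR adjusted p = 0.005). Rfc2 went from 93.9, 88.4, 90.2 and 113 CPM to 133, 122, 144 and 144 CPM (0.49 ± 0.14, edgeR adjusted p = 0.0079). Neither rise was called with the axis as covariate, at 0.27 and 0.32, where 0 members rose and 6 fell (4.16% and 9.3% of all genes). In that fit the falls of Mcm3 and Mcm5 were not called either, and Mcm10 fell. In STM2457, besides Rpa3, Pold2 fell from 145, 132, 140 and 127 CPM to 117, 81.8, 93.97 and 99.2 CPM (-0.47 ± 0.12, edgeR adjusted p = 0.0038), where 3.03% of all genes fell and 1.69% rose.

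**Figure D3:**
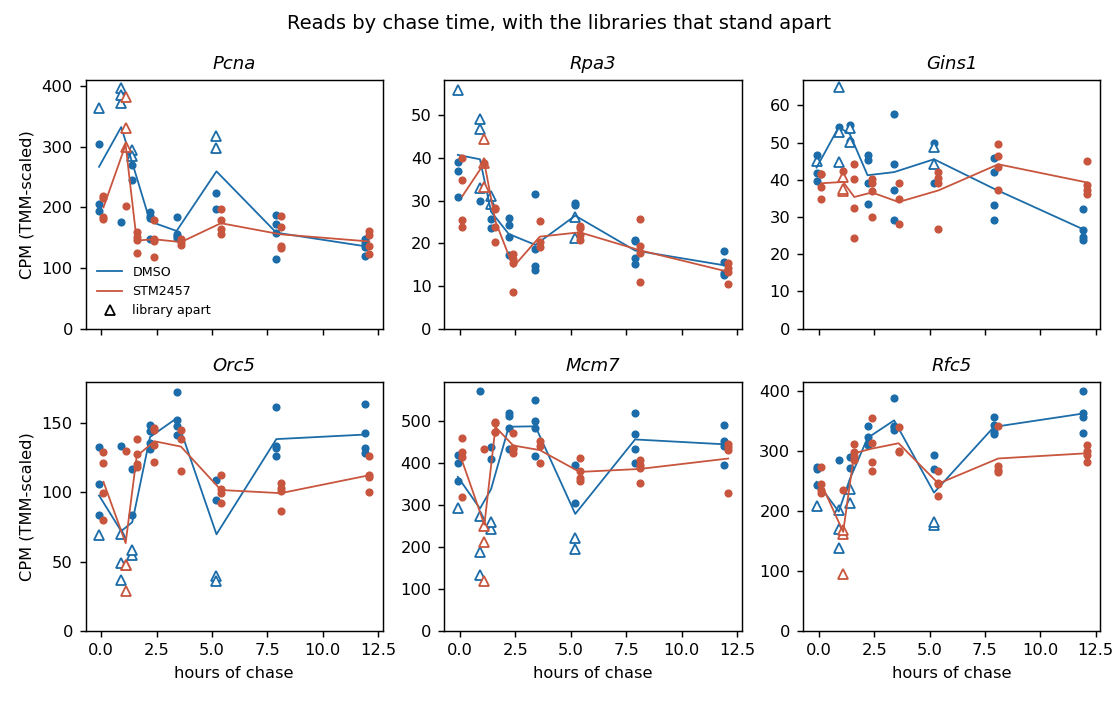
Level in CPM (y axis) against hours of chase (x axis) for Pcna, Rpa3, Gins1, Orc5, Mcm7 and Rfc5, with 1 point per labelled library, a line through the group means, and open triangles for the libraries that stood apart. Rpa3 falls under both treatments, and for Orc5 and Mcm7 every open triangle lies below every filled point.

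The scale used for these changes over time mattered. With library totals only, the median of all genes moved from 0.04 to 0.18 in DMSO, and 4 members rose and 2 fell (1106 genes rose and 604 fell in all). Under that scale Rpa3 and Pcna still fell and Rfc2 and Rfc5 still rose, joined by Pola2 and Pold1, but the falls of Gins1, Mcm3, Mcm4, Mcm5 and Rrm2 were not called. The addition of s4U, compared as T0 against unlabelled DMSO libraries, called 0 members by edgeR and by DESeq2, where edgeR called 0.3% of all genes higher and 0.213% lower.

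Some members differed more along the library axis than between treatments. Orc5 had 48.01 CPM in the median of the 12 libraries and 122 CPM in the others, and Mcm7 232 and 435 CPM, in both cases with no overlap. The axis was drawn from genes other than the members. How many of all genes separated the 12 libraries without overlap was not counted. Pola1 had 62.04 and 34.5 CPM, Mcm2 281 and 473 CPM, and Rfc5 179 and 297 CPM. Fen1 had medians of 159 and 149 CPM and Dbf4 of 110 and 125 CPM. Fen1 ranged from 131 to 324 CPM in the 12 libraries and from 89.3 to 197 CPM in the others. Dbf4 ranged from 74.0 to 215 and from 72.7 to 196 CPM. Since 9 of the 12 were DMSO libraries, where both genes were lower, these values mix treatment with the axis.

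The label at the start of the chase was not called to differ between treatments. Pooled over the members, 1.46% ± 0.113 (SD, n = 4) of covered T positions were converted at T0 in DMSO and 1.35% ± 0.0702 (SD, n = 4) in STM2457, against 0.1003% ± 0.00744 and 0.112% ± 0.0243 in the unlabelled libraries. The rate at T0 was called for 0 of 10079 genes, 0% in either direction, by edgeR's quasi-likelihood test on conversions with covered T positions as exposure. At an unadjusted p under 0.05 there were 102 genes (1.01%) and 0 members, and limma called 0 as well. The median log2 difference was -0.12 over the 43 members and -0.11 over all genes.

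The label then stayed high for some hours and dropped between T4 and T5. The medians here are over the 40 members and the 7363 transcripts that passed the half-life filters described below, which use these same rates. With the unlabelled rate subtracted, the median member in DMSO kept 90.7, 78.2, 84.3 and 68.8% of its T0 rate at 1, 1.5, 2.3 and 3.5 h, then 22.9% at 5.3 h, 8.89% at 8 h and 1.88% at 12 h. In STM2457 it kept 91.1, 87.7, 86.2 and 64.01%, then 18.3, 8.01 and 1.56%. Over the 7363 transcripts, DMSO medians at the same times were 86.1, 75.0, 74.8, 59.5, 14.4, 6.84 and 3.20%. The median of these members was thus above that of these transcripts up to 8 h in DMSO and below it at 12 h, which is a description with no test.

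Loss of label was not called to differ between treatments for any member. The contrast of T1 to T7 against T0, STM2457 minus DMSO, was called for 0 of 10079 genes by edgeR (0% in either direction) and by limma. At an unadjusted p under 0.05 there were 333 genes (3.30%) and 2 members, Fen1 (log2 0.60 ± 0.27) and Pola2 (-0.77 ± 0.35). In simulated counts, a log2 change of 1 in this contrast was found for 43% of changed genes and one of 0.5 for 3%, so that changes of the latter size were mostly not detectable with these libraries. The changed genes were drawn from those above a set coverage, which some members, such as Gins3, did not reach. For such members the share found was not simulated.

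When the rates of T1 to T7 were compared without reference to T0, a contrast added after the data were seen, 5 members were called, where 1% of all genes were higher and 3.64% lower. Fen1 was higher (log2 0.51 ± 0.12, edgeR adjusted p = 0.0017). Pcna (-0.38 ± 0.094), Mcm6 (-0.30 ± 0.081), Lig1 (-0.20 ± 0.045) and Mcm2 (-0.19 ± 0.048) were lower. Since T0 is not taken out, this contrast also holds any difference in label before the chase.

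At single times, Fen1 and Dbf4 were called higher at T5, where 0.446% of all genes were higher and 0.0595% lower. Fen1 had rates of 0, 0.124, 0.0626 and 0.0978% in DMSO and 0.220, 0.201, 0.206 and 0.2004% in STM2457 (log2 1.51 ± 0.35, edgeR adjusted p = 0.0055), with unlabelled means of 0.0335% and 0.0433%. Dbf4 had 0.0402, 0.0971, 0.151 and 0.115% in DMSO and 0.495, 0.174, 0.241 and 0.202% in STM2457 (1.51 ± 0.32, edgeR adjusted p = 0.0023). In both genes every STM2457 value lay above every DMSO value at 5.3 h. How many of all genes had rates apart in this way was not counted. For Dbf4 the unlabelled mean was also higher in STM2457 (0.113% ± 0.0956 against 0.0265% ± 0.0156, SD, n = 4), and its replicate 1 was the highest both there and at T5. At T6 edgeR called 0 members, with 10 at an unadjusted p under 0.05 (19.1% of all genes), where 0.724% of all genes were higher and 1.17% lower.

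At T7 only Lig1 was called, with 0.302, 0.250, 0.243 and 0.266% in DMSO and 0.176, 0.149, 0.134 and 0.2003% in STM2457 (log2 -0.69 ± 0.13, edgeR adjusted p = 1.5e-05). At that time 0.566% of all genes were higher and 3.99% lower. Pooled over the members, the T7 rate was 0.173% ± 0.0131 in DMSO and 0.139% ± 0.00249 in STM2457 (SD, n = 4). The ranges of the libraries were 0.159 to 0.190% and 0.135 to 0.141%, without overlap. The unlabelled libraries ran from 0.0900 to 0.108% in DMSO and from 0.0823 to 0.142% in STM2457. The STM2457 rates at T7 thus lay within the range of the unlabelled STM2457 libraries, and no background was subtracted here. Over all genes together the T7 rates were 0.279% ± 0.0104 and 0.223% ± 0.00599, so that the mean was lower in STM2457 over all genes as well.

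**Figure D4:**
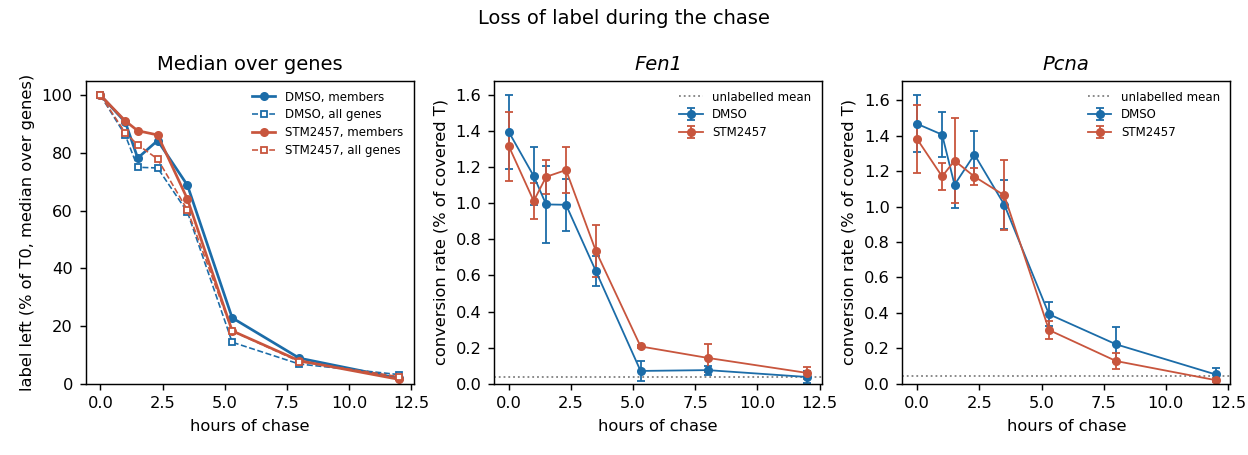
Left, median label remaining in percent of the T0 rate (y axis) against hours of chase (x axis) in DMSO and STM2457, for the members and for all genes that passed the half-life filters. Right, conversion rates in percent of Fen1 and Pcna as mean ± SD of the replicates, with dotted lines at the mean of the unlabelled values of both treatments. The label of the members falls from 68.8% at 3.5 h to 22.9% at 5.3 h in DMSO, and Fen1 at 5.3 h lies at 0.0711% in DMSO and 0.207% in STM2457.

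Half-lives were fitted as exponential decays to these rates. Both fits passed the filters for 40 of 43 members (not Orc3, Mcm4 and Prim2) and for 7363 transcripts in all. The members had a median half-life of 3.97 h in DMSO against 3.80 h in STM2457, and over all transcripts the medians were 3.19 and 3.45 h. In STM2457, 18 of 40 members were longer than in DMSO, with a median change of -3.29%, while 56.7% of all transcripts were longer, with a median change of 4.94%. These are descriptions over genes, and the sign of the members' median change depended on the fit: it was 2.81% with no background subtracted, 0.0658% without T4 and 2.08% without replicate 4.

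The shortest half-lives in DMSO belonged to Cdc7, Cdc6 and Gins3. Cdc7 had the shortest in DMSO at 1.65 h, with 1.91, 0.959 and 1.88 h in the 3 replicate series that could be fitted. Its value of 3.45 h in STM2457 came with a residual error of 0.262 near the limit of 0.3 and with 1 series of 1.55 h, so that the comparison is weak. Cdc6 had 1.78 h in DMSO (series 2.25, 1.73, 1.73 and 1.58 h) and 2.13 h in STM2457 (2.57, 2.42, 1.99 and 1.75 h). Gins3 followed with 2.16 h in DMSO (1.52, 2.05 and 1.57 h) and 1.36 h in STM2457 (0.823, 1.09 and 1.69 h). The series of the treatments overlap for Cdc6 and Gins3.

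Among the members that passed both fits, Prim1, Rpa1 and Gins2 had the longest half-lives in DMSO. Prim1 had 5.55 h (series 4.17, 4.87 and 5.60 h) and 4.06 h in STM2457 (2.41, 5.31 and 3.57 h). Rpa1 had 5.54 h (6.71, 6.55, 3.95 and 6.14 h) and 5.32 h (5.45, 5.51, 5.70 and 3.87 h). Gins2 had 5.45 h (4.87, 4.93 and 5.76 h) and 4.46 h (4.56, 3.71 and 3.32 h), and it was the only one of these 3 whose series did not overlap. How many of all transcripts had series without overlap was not counted. In the limma fit below with at least 2 series per treatment, Gins2 was not called (log2 ratio -0.43 ± 0.27, limma adjusted p = 0.63). Pold1, also at 5.45 h in DMSO, stood next to Gins2. Prim2 at 7.48 h and Mcm4 at 5.81 h were longer in DMSO, but their STM2457 fits did not pass the residual limit.

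By role, the polymerases and primase went from a median of 4.24 h in DMSO to 3.73 h in STM2457, with 0 of 8 longer. Of the origin genes 5 of 6 were longer, although their median went from 3.37 to 3.21 h. The MCM genes had medians of 4.22 and 4.02 h with 2 of 6 longer, and the clamp genes 4.30 and 3.96 h with 3 of 6 longer. The genes of helicase activation had 2.77 and 3.45 h with 4 of 7 longer, and those of single strands, Okazaki fragments and nucleotides 3.73 and 4.82 h with 4 of 7 longer.

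Fen1, higher in level, had 2.55 h in DMSO (series 2.55, 3.58, 2.31 and 2.11 h) and 3.34 h in STM2457 (4.20, 3.34, 2.77 and 3.11 h), and the series overlap. Dbf4 had 2.76 and 3.32 h, but the means of its series were 2.80 h ± 0.366 (SD, n = 4) and 2.76 h ± 0.335 (SD, n = 3). Rfc4, lower in level, had 4.75 and 3.83 h, with DMSO series from 2.98 to 8.14 h and 1 STM2457 series of 3.11 h. The series of the treatments thus overlapped for Fen1 and Dbf4, and the lone STM2457 series of Rfc4 lay within the range of its DMSO series.

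Over the replicate series, limma could test 1815 transcripts with a half-life in each of them, 13 of them members. It called 1 transcript (0.0551%) and 0 members at an adjusted p under 0.05, with 214 transcripts and 0 members at an unadjusted p under 0.05. The member with the largest difference was Fen1 (log2 ratio 0.36 ± 0.21, limma adjusted p = 0.52). With at least 2 fitted series per treatment as the requirement, chosen after the data were seen, 5899 transcripts and 37 members could be tested. This fit called 0 transcripts, with 561 transcripts (9.51%) and 0 members at an unadjusted p under 0.05, and Pola2 had the lowest p of the members (log2 ratio -0.63 ± 0.30, limma adjusted p = 0.54). Series that failed the fit filters are missing from it.

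**Figure D5:**
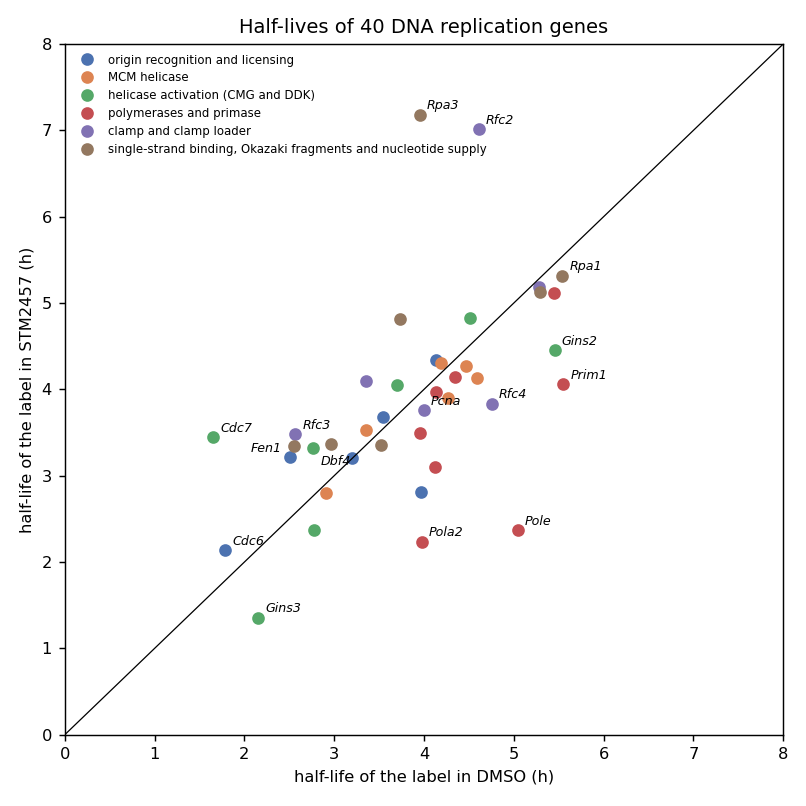
Half-life of the label in STM2457 (y axis, hours) against that in DMSO (x axis, hours), with 1 point for each of the 40 members that passed the fit filters, coloured by role, and a line where both are equal. DMSO values run from 1.65 h for Cdc7 to 5.55 h for Prim1, and 18 points lie above the line. The 8 polymerase and primase genes that passed all lie below it, and Prim2, which did not pass, is not shown.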

How the data were processed

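SLAM-seq libraries of 71 mESC samples were analysed. Per the study's methods, the authors mapped reads with SLAM-DUNK (up to 100 alignments per read), masked variants found in the pooled libraries without s4U (variant fraction 0.2), counted on 3′ UTRs filtered to GENCODE M23 on GRCm38.p6, and collapsed the counts per gene. The submitters' processing notes also name FastQC 0.11.8. Per gene and library, the deposited files hold raw counts of reads, multimapping reads, T positions covered and T-to-C conversions, and the rate of conversion as a fraction, in which the authors subtracted no background. No molecular identifiers are stated, so a read is not a molecule.

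Read counts were tested with edgeR 4.0.16 (R 4.3.3, quasi-likelihood, TMM, filterByExpr) in 1 fit of all 71 libraries with 18 groups and 12659 genes. Conversions were tested likewise over 63 labelled libraries with covered T positions as exposure (10079 genes). Genes were called at a Benjamini-Hochberg adjusted p under 0.01. Half-lives followed the study's filters (T coverage over 100, 0.67 to 18 h, residual error at most 0.3) and were tested over replicate series with limma 3.58.1 at 0.05. Alternatives were DESeq2 1.42.0, other scalings and filters, multimapping reads removed, a replicate block, fewer libraries, and a library axis chosen after seeing the data. The tests were checked on simulated counts. These followed the fitted trend of spread, held no library axis, and were changed only in genes above a set count or coverage. In the simulated counts, a log2 change of 0.5 at T0 was found for 7% of changed genes and one of 1 for 76%, and in the mean of T0 to T7 for 96% and 100%.

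The members and the other gene lists were chosen with earlier results of these data known. All members are named. Values per library are given for up to 4 members with the largest called rise and fall in the mean of T0 to T7 and in the change from T0 to T7. Half-lives are given for the 3 shortest and the 3 longest among members that passed both fits. Of the other lists up to 3 genes per direction are named. Values of the other Mcm, Orc and Rfc genes along the library axis were picked after they had been seen. Groups and replicate numbers come from the labels. Same-numbered libraries of the treatments did not deviate together (35 pairs, mean correlation 0.00967, 1 pair over 0.1), so the numbers were not used as pairs.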

Additional observations from a re-analysis of the deposited data

Results flagged for a closer look

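Of 34 groups of 4 libraries examined for a single library far from the rest, 2 held one, and chance flags about 1 group in 20. Both concern the conversion rate pooled over the members. In DMSO at T3, replicate 1 had 1.14%, below the other replicates at 1.28 to 1.30%. In STM2457 at T7, replicate 4 had 0.135%, below the other replicates at 0.140 to 0.141%.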

How the results depend on the processing

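No member called in a comparison changed its sign there under any alternative run, and of these members' values 597 stayed past the threshold and 84 did not. Members not called could change sign (Mcm7 from 0.03 to -0.14 with the library axis as covariate), as did the median change of the members' half-lives. For the mean of T0 to T7 (25 members called), all alternatives but one stayed within 1.5 times, with 20 to 24 members called when a replicate number was left out and 14 in the mean of T3, T4, T6 and T7. At T0 (0 called) there were 3 at an adjusted p under 0.05, 2 with the library axis as covariate, 4 with DESeq2, and 0 to 1 with 1 library left out (1 without DMSO replicate 4). At T7 (4 called) there were 8 with the axis and 2 to 3 with 1 library left out (2 without DMSO replicate 1). For the change from T0 to T7 in DMSO (9 called, 7 of them falls) there were 6 with library totals only, 4 of them rises, 17 at 0.05 and 4 to 9 with 1 library left out (4 without T0 replicate 1, 5 without T0 replicate 2 or T7 replicate 4). For that in STM2457 (2 called) there were 5 at 0.05, 5 with only the libraries compared, 7 without the libraries apart, and 1 to 2 with 1 library left out (1 without T0 replicate 1 or 3 or T7 replicate 2 or 3). Without s4U (2 called) there were 10 at 0.05, 1 with only the libraries compared, 4 with the axis, 4 without the libraries apart, 5 with DESeq2 and 2 to 3 with 1 library left out. The axis also raised the calls among all 12659 genes. At T7 they were 748 higher and 419 lower with it, against 487 and 198 in the main fit. At T0 they were 253 and 104 against 161 and 52, and without s4U 266 and 152 against 219 and 107. The counts of members thus describe the settings and are no result about the members. Loss of label (0 called) gave 5 when not referred to T0. With a replicate block, 25 members were called in the mean of T0 to T7, 4 at T7, 9 in the DMSO change and 3 without s4U. The numbers are not shown to pair the samples, and the block changed no other count. In simulated counts, fewer changes were found at T0 and in the loss of label than in the mean of T0 to T7, and depth was not varied. Half-lives rest on decays that an exponential describes poorly where the label drops between T4 and T5. The cause of none of these shifts was tested.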

Other observations

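Other genes of replication, 47 genes from factors of the fork to the E2F family, were also examined in the mean of T0 to T7: 14 were lower and 4 higher in STM2457, with a median log2 difference of -0.13 (edgeR, adjusted p under 0.01, where 12.6% of all genes were lower and 13.9% higher). Those with the largest falls were Rb1, the retinoblastoma protein that restrains E2F (-0.70 ± 0.14, edgeR adjusted p = 1.8e-05), Dscc1, a subunit of an alternative clamp loader (-0.46 ± 0.079), and the repressor E2f5 (-0.38 ± 0.092). Tk1, thymidine kinase (0.44 ± 0.093), Chtf8, a partner of Dscc1 (0.33 ± 0.055), and Ticrr, a factor of origin firing (0.29 ± 0.049), were higher. Of 26 mitosis genes 5 were lower and 3 higher, with a median of 0.02. Among them the kinetochore genes Ndc80 (-0.47 ± 0.062) and Spc25 (-0.34 ± 0.056) and the spindle gene Nusap1 (-0.45 ± 0.048) were lower, and Nuf2, a partner of Ndc80 (0.26 ± 0.065), the kinase Aurka (0.25 ± 0.035) and Cdk1 (0.23 ± 0.064) were higher.

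Over the chase, falls were also called among the mitosis genes. In DMSO from T0 to T7, 14 of 26 fell and 0 rose (median log2 -0.65, against 8.2% and 4.85% of all genes), with Aurka at -1.71 ± 0.10, Prc1 at -1.46 ± 0.19 and Kif23 at -1.41 ± 0.18. In STM2457, 6 of 26 fell (median -0.40, against 3.03% of all genes), with Aurka at -0.89 ± 0.10. Of the other replication genes 3 fell and 2 rose in DMSO, with E2f3 at -1.98 ± 0.30, E2f4 at -1.05 ± 0.17 and Asf1a at -1.02 ± 0.21, and with E2f1 at 1.42 ± 0.21 and Clspn at 0.53 ± 0.15. In STM2457 the sole call was Tk1 (1.08 ± 0.26, edgeR adjusted p = 0.0031).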
